A study of Mus musculus with 10 samples.

Results

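The Siglec family is described here in brain microglia through 6 genes, Siglec1, Siglece, Siglech, Siglecg, Siglecf and Cd33, which were taken by name from the 49315 genes counted in each library. Siglecs are cell surface lectins of the immunoglobulin superfamily that bind sialic acids, the acidic sugars at the ends of many glycan chains. Most members carry tyrosine motifs in their cytoplasmic tail that recruit the phosphatases SHP-1 and SHP-2 and dampen activation. Others lack such motifs and pair with the adaptor DAP12, the product of Tyrobp, or serve mainly in adhesion. In the brain, where neurons and glia carry dense sialic acid coats, Siglecs are studied as receptors by which microglia read those coats.

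RNA was sequenced from microglia of the brain of wild-type C57BL/6 mice, sorted by flow cytometry into cells with (CD11c+) and without (CD11c-) CD11c, the integrin alpha X chain that Itgax encodes. Postnatal day 5 (P5) was represented by 3 CD11c+ and 3 CD11c- libraries, and 9 months of age by 2 CD11c+ and 2 CD11c- libraries. The SMART-Seq v4 low-input kit is stated for 9 months alone, so age and library kit cannot be told apart, and levels at the 2 ages are given without a test between them. Whether a group's replicates are separate animals is not labelled, and the p-values then reflect only how these libraries vary, which may be technical variation.

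Libraries held 11892082 to 25483573 counts, apart from P5 CD11c+ replicate 2 with 2619610. Its correlation across genes with each of the rest of P5 was 0.627 to 0.697, against 0.947 to 0.993 among those, so P5 fold changes of the members, and the P5 calls given for gene lists, are stated with and without it where they differ. All 20 genes of a list of homeostatic microglia markers (Tmem119, P2ry12 and others) were detected in every library. They made up 1.40% to 2.18% of the counts in P5 CD11c+, 1.92% to 3.32% in P5 CD11c-, 8.96% to 9.56% in 9-month CD11c+ and 3.09% to 3.12% in 9-month CD11c- libraries. In the 9-month CD11c- libraries 14 marker genes of neutrophils and their precursors made up a further 13.8% to 18.8% of the counts, against at most 0.338% in any other library. In such bulk samples fewer cells of a type and less RNA per cell cannot be told apart.

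The members lie in 3 places of the genome, in coordinates of the deposited tables, which equal those of GENCODE M21 on GRCm38 for all 6. Siglecf (ENSMUSG00000039013, chr7:43351341-43359531, plus strand), Siglecg (ENSMUSG00000030468, chr7:43408204-43418358, plus), Cd33 (ENSMUSG00000004609, chr7:43524216-43544428, minus) and Siglece (ENSMUSG00000030474, chr7:43651070-43660161, minus) are neighbours in the CD33-related cluster. Siglech (ENSMUSG00000051504, chr7:55768178-55778925, plus) lies elsewhere on chromosome 7. Siglec1 (ENSMUSG00000027322, chr2:131069220-131086765, minus) is on chromosome 2.

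Siglech and Siglecf are shown by their promoters because their levels had the highest correlation of any 2 members across the 9 libraries without P5 CD11c+ replicate 2 (below). The choice was thus made from these same data. The 250 bases before the start of each were taken from the RefSeq table of GRCm38.p6, in which 5 of the 6 members were matched. Each run reads 5′ to 3′ on the plus strand, chr7:55767934-55768183 for Siglech and chr7:43351091-43351340 for Siglecf. Capitals mark GGAAGT, the core of ETS factor sites, or TGTGGT, the core of RUNX sites, on either strand, so that ACTTCC and ACCACA are the same motifs on the minus strand. The 6 bases of the Siglech run nearest its start lie inside the deposited gene model.
Siglech: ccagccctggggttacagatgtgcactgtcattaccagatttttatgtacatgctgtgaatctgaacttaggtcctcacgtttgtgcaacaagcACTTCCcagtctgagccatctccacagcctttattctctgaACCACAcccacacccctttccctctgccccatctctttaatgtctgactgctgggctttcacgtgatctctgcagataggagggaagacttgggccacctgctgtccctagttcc
Siglecf: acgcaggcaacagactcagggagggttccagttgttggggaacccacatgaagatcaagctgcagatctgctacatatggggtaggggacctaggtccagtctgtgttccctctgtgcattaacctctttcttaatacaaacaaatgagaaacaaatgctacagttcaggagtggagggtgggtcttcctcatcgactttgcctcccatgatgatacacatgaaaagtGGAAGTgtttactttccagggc
The ETS core is in both, 156 to 151 bases before the Siglech start and 22 to 17 bases before the Siglecf start. Only the Siglech run holds the RUNX core, 115 to 110 bases before its start. Of 32851 RefSeq promoter windows of the same length, 19.74% hold GGAAGT and 14.05% hold TGTGGT, so a match is common and is given as a description. Neither the GAAA pair of interferon response elements (GAAA, any 2 bases, GAAA), held by 2.98% of the windows, nor TATAAA, held by 12.37%, is in the window of any of the 5 matched members. The 4 motifs were searched on both strands, and none is in the windows of Siglece and Siglecg.

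The best alignment between windows of 2 members was that of Siglecf and Cd33, which share the ETS core with its flanks. The stretches run from base 30 to base 4 before the Siglecf start and from base 160 to base 133 before the Cd33 start, and capitals again mark GGAAGT.
Siglecf stretch: tgaaaagtGGAAGTgtttactttccag
Cd33 stretch: tggaaagtGGAAGTgtttaatcttcaag
They have 24 of 28 aligned positions in common (85.71%). With the 50 bases after the start included, the alignment grew to 80 positions, of which 62 were identical (77.5%). The RefSeq start of Cd33 used here, chr7:43533171, lies within the deposited gene.

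Siglech led the family per length in all 4 groups, and Cd33 or Siglece came next. Counts scaled to the library total (CPM) and then to each kilobase of exon (RPKM) allow levels of different genes to be compared. In RPKM Siglech had a mean of 192 in P5 CD11c+, 180.3 in P5 CD11c-, 525 in 9-month CD11c+ and 171 in 9-month CD11c- libraries. In P5 CD11c- libraries the order was Siglech, Cd33 (71.3), Siglece (22.8), Siglecf (10.7), Siglecg (1.98) and Siglec1 (0.800), and no neighbours in it overlapped. In P5 CD11c+ libraries Siglech did not overlap with Cd33 (62.7), while Cd33 overlapped with Siglece (30.2). Siglec1, at 15.5, lay below Siglece without overlap and overlapped with Siglecf (5.75), which overlapped with Siglecg (2.95), the last.

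At 9 months the CD11c+ order was Siglech, Cd33 (73.9), Siglece (55.9), Siglecf (13.8), Siglec1 (3.24) and Siglecg (2.94), where the last pair overlapped. In 9-month CD11c- libraries Siglece (60.2) and Cd33 (59.1) overlapped, as did Siglecf (5.25) and Siglecg (4.59), and Siglec1 (0.732) was lowest. Siglech made up 77.1% and 78.4% of the summed RPKM of the 6 members in 9-month CD11c+ libraries and 57.7% and 56.0% in CD11c- libraries. Its share at P5 was 61.6%, 61.9% and 65.4% in CD11c- and 37.5%, 84.4% and 45.8% in CD11c+ replicates 1, 2 and 3, so replicate 2 stood apart from its group.

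**Figure D1:**
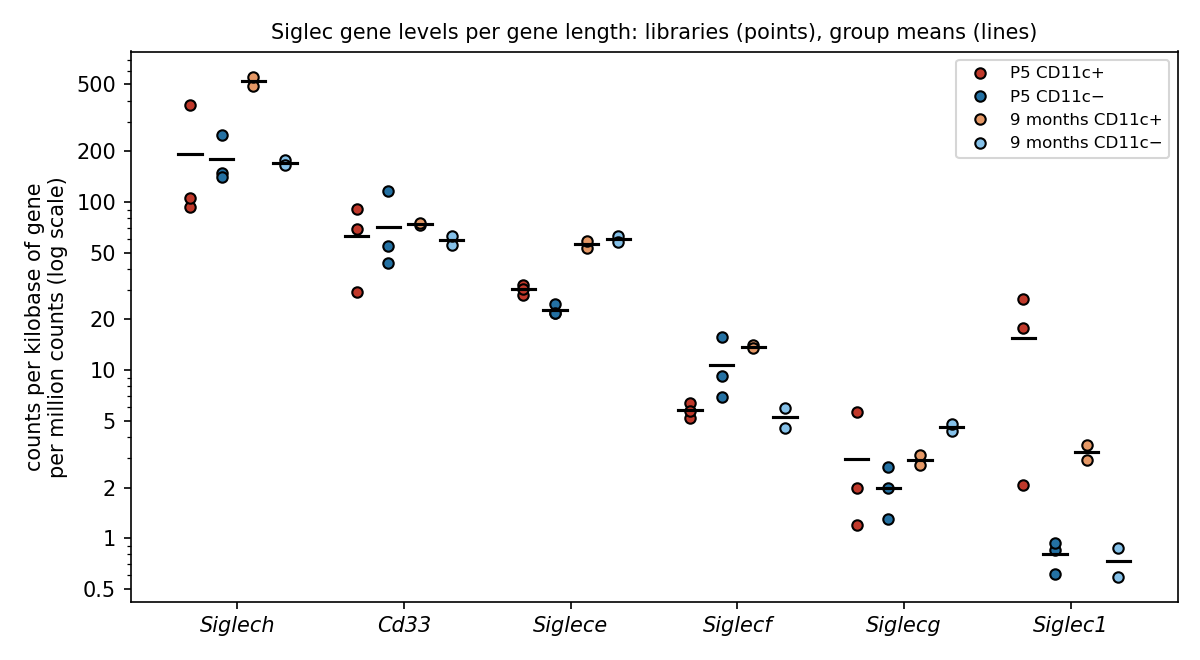
Mean RPKM (CPM per kilobase of exon, log scale) of the 6 Siglec genes in the 4 groups, with the single libraries as points. Siglech is highest in every group, with means of 171 to 525, and Siglec1 is last in both CD11c- groups.

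Across the family, none of the 6 members passed the test at P5 and 5 of 6 passed it at 9 months, 3 higher and 2 lower in CD11c+ cells. The test was edgeR's quasi-likelihood F-test within each age, adjusted over all genes, with a threshold of 0.05. At P5 it called 46 of 15410 genes, or 0.299%, all of them higher in CD11c+ cells. Without CD11c+ replicate 2 it called 9.48% (5.06% higher and 4.42% lower), and 2 members passed, Siglec1 higher and Siglech lower. At 9 months it called 5202 of 15740 genes, or 33%, with 14.8% higher and 18.2% lower, so a call there is common. Fold changes below are log2 of CD11c+ over CD11c- with their standard errors (SE), after scaling by trimmed means of M-values (TMM), while levels are plain CPM from library totals.

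The 2 scales part at 9 months. Under plain library totals, a setting added after seeing the data, the median log2 fold change of all genes was 0.40, against 0.02 under TMM. Scaling to the summed homeostatic marker list instead put that median at -1.17 and called 54.7% of genes, 0.75% higher and 53.9% lower, with 0 members higher and 3 lower (Siglece, Siglecg and Cd33). None of the 5 members called at 9 months kept its call under all 3 scalings. Siglec1, Siglech and Siglecf lost it when scaled to the homeostatic list, and Siglece and Siglecg with plain totals. In a fit of all 10 libraries, which called 5.92% of genes for the 9-month contrast, all 5 lost it. Over the 13 alternatives tried at 9 months the adjusted p ran from 6.848e-15 to 0.8565 for Siglech, from 1.338e-07 to 0.2572 for Siglec1 and from 0.0001881 to 0.5648 for Siglecf, of which 11 passed for each. For Siglecg it ran from 0.0001682 to 0.385 (10 passed), for Siglece from 0.0002949 to 0.6644 (6 passed) and for Cd33 from 0.0007533 to 0.9995 (1 passed).

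**Figure D2:**
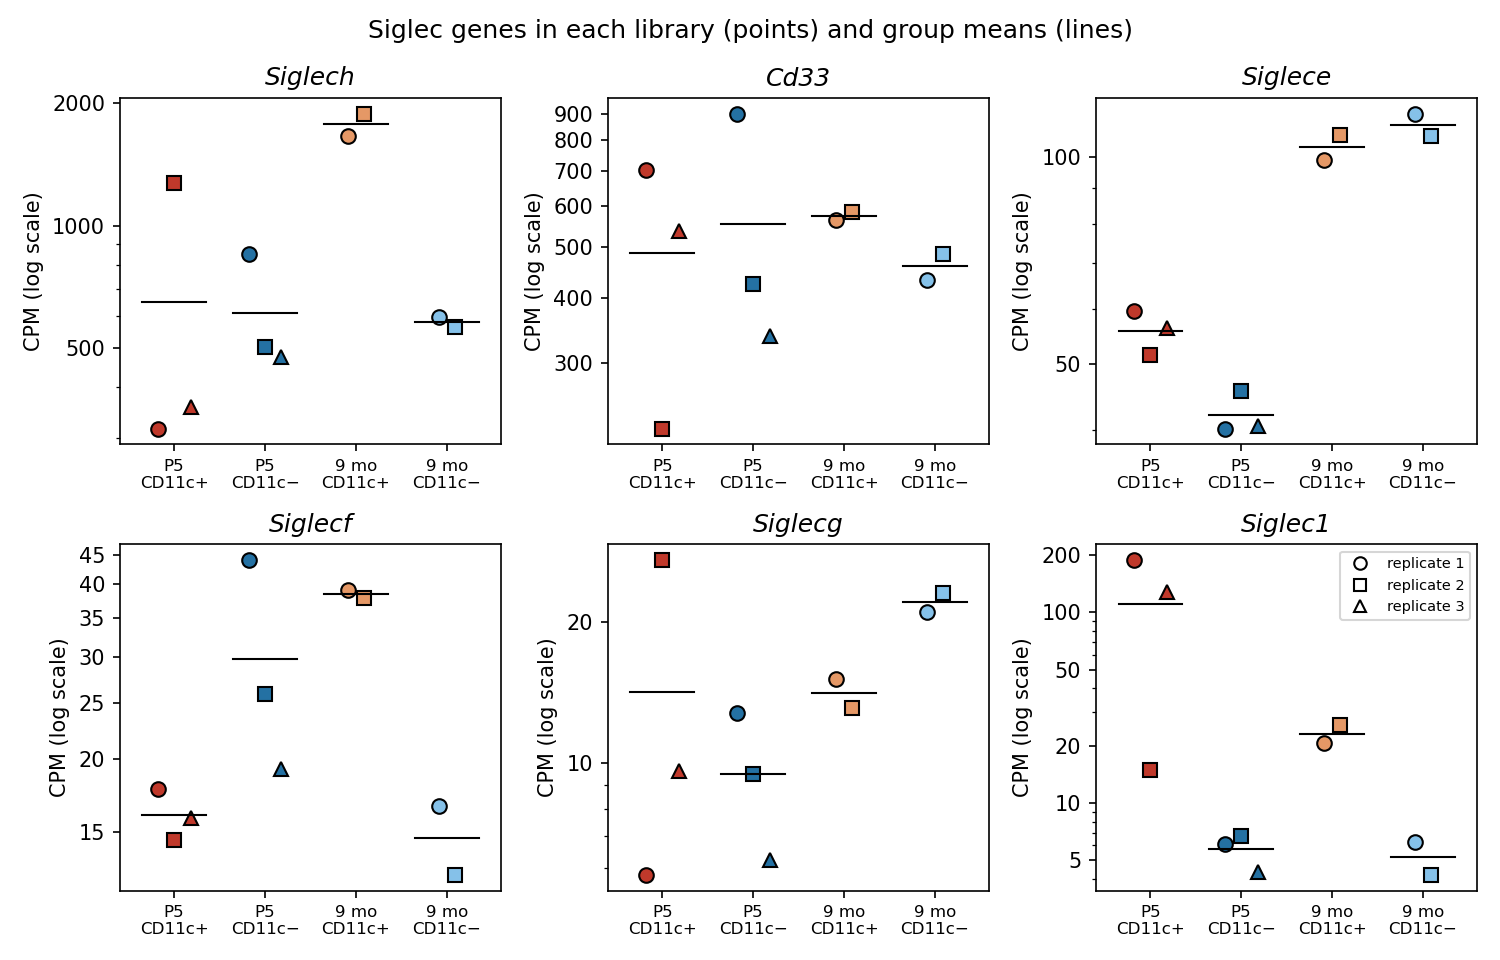
CPM of each Siglec gene (log scale) in the 10 libraries, with group means as lines and marker shapes for replicate numbers. Siglech, Siglecf and Siglec1 are higher in both 9-month CD11c+ libraries than in both CD11c- libraries, as are 49.4% of all tested genes. At P5 the CD11c+ replicate 2 stands apart for Siglech, Siglecg, Cd33 and Siglec1.

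Siglech is a receptor without an inhibitory motif that signals through DAP12, known from plasmacytoid dendritic cells and used as a marker of microglia. At 9 months it had 1665 and 1886 CPM in CD11c+ libraries and 597.7 and 562.1 CPM in CD11c- libraries. Every CD11c+ library lay above every CD11c- library, as for 49.4% of all tested genes. The mean was 1775 ± 156 against 579.9 ± 25.2 CPM (SD, n = 2 each), 3.06 times higher. Siglech rose by 1.24 ± 0.14 (log2, edgeR adjusted p = 0.0009864), with the same call without any 1 of the 4 libraries. With scaling to the homeostatic list it stood at 0.04 (edgeR adjusted p = 0.8565). All 20 genes of that list rose too, with a median log2 fold change of 1.32.

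Within each 9-month library, Siglech had 17.42 and 21.04 counts per 1000 counts of the homeostatic list in CD11c+ and 19.32 and 18.01 in CD11c- cells. These ratios overlap. This measure was chosen after seeing the data. Markers of plasmacytoid dendritic cells, 12 genes that include Irf8 and Tcf4, made up 0.0935% to 0.112% of counts in CD11c+ and 0.0315% to 0.0473% in CD11c- libraries at 9 months. Most of these counts came from Irf8 and Tcf4. Irf8 had 811 and 673 CPM and Tcf4 167 and 154 CPM in CD11c+ libraries, of 1123 and 935 CPM for the list. In CD11c- libraries Irf8 had 341 and 194 CPM and Tcf4 60.6 and 51.2 CPM, of 473 and 315 CPM. In that list 5 of 11 tested genes rose, Irf8 and Tcf4 among them, and 1 fell (Smim5). Whether the share of the list reflects such cells was not tested, nor was the part of either list in the Siglech result.

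At P5, Siglech had 317, 1272 and 358 CPM in CD11c+ replicates 1, 2 and 3 and 851, 504 and 475 CPM in the CD11c- libraries. Replicate 2 was the highest of the 6 libraries and the other CD11c+ libraries were the lowest, below every CD11c- library as 15.7% of genes were without replicate 2. The fold change was -0.05 ± 0.59 (log2, edgeR adjusted p = 0.9907) with all libraries. Without replicate 2, Siglech fell by 0.99 ± 0.21 (edgeR adjusted p = 0.0341), and over the alternatives tried the adjusted p ran from 0.01967 to 0.9997. Per 1000 counts of the homeostatic list it was at 14.9, 90.7 and 16.4 in CD11c+ and 25.6, 24.2 and 24.7 in CD11c- libraries. The homeostatic list itself had a median log2 fold change of -0.90, with 0 of 20 called, and -0.51 with 3 falling without replicate 2.

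**Figure D3:**
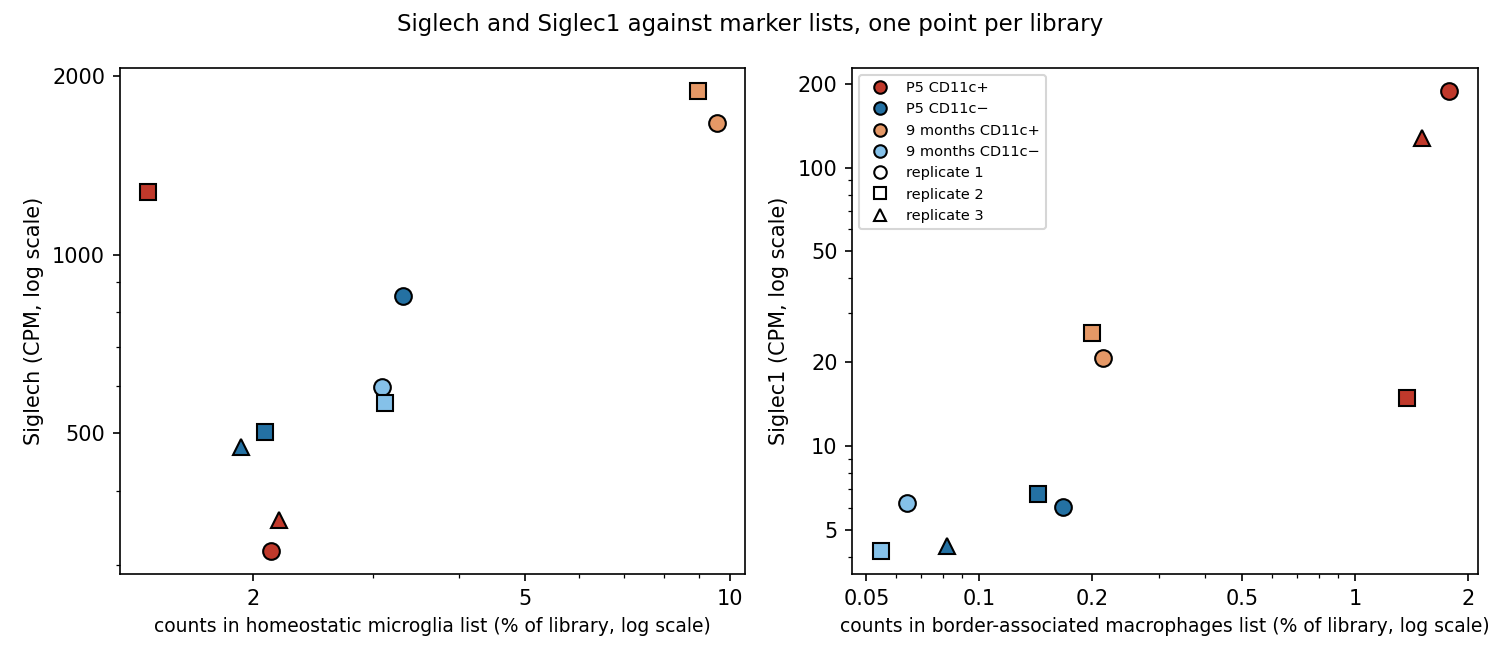
Siglech against the share of counts in the homeostatic microglia list (left) and Siglec1 against that in the border-associated macrophage list (right), 1 point per library, all axes logarithmic. The 9-month CD11c+ libraries are highest in both the homeostatic list (8.96% to 9.56%) and Siglech, and P5 CD11c+ replicate 2 lies apart from the other libraries in both.

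Cd33, best known because variants of its human counterpart are linked to the risk of Alzheimer's disease, did not pass the test at either age. At 9 months it had 563.9 and 584.7 CPM in CD11c+ and 432.8 and 486.0 CPM in CD11c- libraries, with means of 574 ± 14.7 and 459 ± 37.6 CPM (SD, n = 2 each). In plain CPM the groups did not overlap and CD11c+ was 1.25 times higher, like 49.4% of all tested genes, for which every CD11c+ library lay above every CD11c- library. The TMM-scaled fold change was -0.06 ± 0.16 (log2, edgeR adjusted p = 0.7974), and it was 0.32 (0.1519) with plain totals and -1.25 (0.0007533) scaled to the homeostatic list. Its direction thus turned with the scaling.

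At P5, Cd33 had 701, 225 and 536 CPM in CD11c+ and 899, 424 and 338 CPM in CD11c- libraries. The ranges overlapped, and the fold change was -0.32 ± 0.49 (log2, edgeR adjusted p = 0.8876). It was 0.05 (0.9384) without replicate 2, and over the alternatives the adjusted p was 0.5033 to 0.9995. Both values lay within their error of 0.

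Siglece is an inhibitory receptor of neutrophils, monocytes and macrophages that also acts on microglia. At 9 months it had 99.0 and 107.7 CPM in CD11c+ and 115.6 and 107.1 CPM in CD11c- libraries, which overlapped, with means of 103 ± 6.14 and 111 ± 6.00 CPM (SD, n = 2 each). After TMM scaling it fell by 0.48 ± 0.15 (log2, edgeR adjusted p = 0.0453), just within the threshold. The call was lost without any single one of the 4 libraries (edgeR adjusted p from 0.08004 to 0.3525) and with plain totals, where the fold change was -0.11 (0.6644).

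The markers of neutrophils (14 of 14 genes) and classical monocytes (9 of 10) fell in CD11c+ cells at 9 months, with medians of -7.11 and -4.83. Monocyte markers made up 0.0283% to 0.0373% of counts in CD11c+ and 1.16% to 1.39% in CD11c- libraries. Their part in the Siglece value was not tested. At P5, Siglece had 59.6, 51.5 and 56.3 CPM in CD11c+ and 40.2, 45.6 and 40.6 CPM in CD11c- libraries. Every CD11c+ library lay above every CD11c- library, with replicate 2 included, as did 11.7% of all tested genes. The fold change was 0.20 ± 0.22 (log2, edgeR adjusted p = 0.8317) and 0.28 ± 0.17 (0.3525) without replicate 2, with an adjusted p of 0.3196 to 0.9995 over the alternatives.

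Siglecf, an inhibitory receptor best known from eosinophils and alveolar macrophages, was lower in CD11c+ libraries at P5 and higher in them at 9 months. At P5 it had 17.8, 14.5 and 15.9 CPM in CD11c+ and 44.1, 25.9 and 19.3 CPM in CD11c- libraries. Every CD11c+ library was below every CD11c- library, as for 3.64% of all tested genes, and the means of 16.1 ± 1.65 and 29.7 ± 12.8 CPM (SD, n = 3 each) differed 1.85 times. The fold change was -1.03 ± 0.28 (log2, edgeR adjusted p = 0.3074), and without replicate 2 it was -0.95 ± 0.25 (0.05847). With sample quality weights in limma-voom it passed at -0.83 (adjusted p = 0.009201), in a fit that called 21.2% of genes, 12.3% lower, and over all alternatives the adjusted p ran up to 0.9995.

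At 9 months Siglecf had 39.1 and 37.9 CPM in CD11c+ and 16.6 and 12.7 CPM in CD11c- libraries. The groups did not overlap, as for 49.4% of all tested genes in that direction. Means were 38.5 ± 0.862 and 14.6 ± 2.80 CPM (SD, n = 2 each), a ratio of 2.63. Siglecf rose by 1.03 ± 0.20 (log2, edgeR adjusted p = 0.00888), with the call kept without any 1 library and with plain totals (0.003806), and stood at -0.18 (0.5648) scaled to the homeostatic list.

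The change of Siglecf between ages was the only one among the members that passed the interaction test, in which 1.86% of 19555 genes passed, 0.302% with a higher fold change at 9 months. Its log2 fold change was 2.26 ± 0.45 higher at 9 months than at P5 (edgeR adjusted p = 0.0388). Without P5 CD11c+ replicate 2 the difference was 2.10 (0.00329), in a fit that called 19.1%, and without any other single library the adjusted p was 0.06164 to 0.4307. It was 0.30 (0.5557) when scaled to the homeostatic list, and 7 of 18 alternatives passed, with 2.16e-05 (DESeq2) the lowest. In the same test 2 of the 20 homeostatic list genes, and 19 of 20 without replicate 2, also had a higher fold change at 9 months.

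Per 1000 counts of the homeostatic list Siglecf had 0.837, 1.03 and 0.728 counts in P5 CD11c+, 1.33, 1.24 and 1.004 in P5 CD11c-, 0.4095 and 0.423 in 9-month CD11c+ and 0.537 and 0.4055 in 9-month CD11c- libraries. On that measure, chosen after seeing the data, the P5 subsets overlapped only through replicate 2, and those at 9 months overlapped too. Eosinophil and basophil markers moved the other way from Siglecf at 9 months. All 11 fell, and they made up 0.00214% to 0.00254% of counts in CD11c+ and 0.1605% to 0.171% in CD11c- libraries, where the granule gene Prg2 had 960 and 905 CPM. At P5 these markers made up 0.00622% to 0.00894% in CD11c+ and 0.00377% to 0.0105% in CD11c- libraries, and Prg2 was at 0 in all 3 CD11c+ libraries. Of 5 tested there 0 passed, and 3 of 6 fell without replicate 2. The part of eosinophils and basophils in the Siglecf values was not tested.

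Siglecg, the inhibitory member of B cells and other leukocytes that binds CD24, was low everywhere. At 9 months it had 15.1 and 13.1 CPM in CD11c+ and 21.002 and 23.1 CPM in CD11c- libraries. Every CD11c+ library lay below every CD11c- library, as for 23.7% of all tested genes. Means were 14.1 ± 1.41 and 22.1 ± 1.48 CPM (SD, n = 2 each), 1.56 times lower in CD11c+ cells. Siglecg fell by 1.03 ± 0.23 (log2, edgeR adjusted p = 0.01593). The call was lost without CD11c+ replicate 2, at -0.88 (0.07331), and with plain totals, at -0.64 (0.06696). Scaled to the homeostatic list the value was -2.22 (0.0001682).

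Of the B cell markers 1 of 5 tested genes rose and 3 fell at 9 months, and the 10 of the list made up 0.0678% to 0.0717% of counts in CD11c+ and 0.0315% to 0.0426% in CD11c- libraries. At P5, Siglecg had 5.80, 27.1 and 9.62 CPM in CD11c+ and 12.8, 9.51 and 6.22 CPM in CD11c- libraries, with replicate 2 the highest of the 6 on 71 counts. The fold change of 0.40 ± 0.61 (log2, edgeR adjusted p = 0.8838) turned to -0.44 (0.4117) without it, with an adjusted p of 0.3485 to 0.9995 over the alternatives.

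Siglec1, or sialoadhesin (CD169), is an adhesion receptor of tissue macrophages with no inhibitory motif and marks border-associated macrophages rather than parenchymal microglia. At P5 it had 188, 14.9 and 128 CPM in CD11c+ and 6.06, 6.71 and 4.37 CPM in CD11c- libraries. All CD11c+ libraries were above all CD11c- libraries, as for 11.7% of all tested genes, and replicate 2 was far below its group on 39 counts. The means of 110 ± 88.1 and 5.72 ± 1.21 CPM (SD, n = 3 each) differed 19.3 times. The fold change was 4.08 ± 0.85 (log2, edgeR adjusted p = 0.1685) with all libraries, and without replicate 2 Siglec1 rose by 4.62 ± 0.24 (0.0002338). Over all alternatives at P5 the adjusted p ran from 1.843e-05 (DESeq2) to 0.9685.

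At 9 months Siglec1 had 20.8 and 25.6 CPM in CD11c+ and 6.26 and 4.20 CPM in CD11c- libraries, means of 23.2 ± 3.39 and 5.23 ± 1.45 CPM (SD, n = 2 each) and a ratio of 4.43. Siglec1 rose by 1.78 ± 0.27 (log2, edgeR adjusted p = 0.003501), also without any 1 library and with plain totals (0.001945). Scaled to the homeostatic list it stood at 0.58 (0.169). The change between ages was -2.18 ± 1.11 (edgeR adjusted p = 0.3768), and -2.72 ± 0.34 (0.0007752) without P5 CD11c+ replicate 2, within a range of 0.0007752 to 0.9506 over the alternatives.

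Border-associated macrophage markers (12 genes, Mrc1, Cd163, Lyve1 and Pf4 among them) moved with Siglec1. At P5, 7 of 12 rose, or all 12 without replicate 2, with a median of 5.19 (4.90 without it). They made up 1.38% to 1.78% of counts in CD11c+ and 0.0821% to 0.167% in CD11c- libraries. At 9 months 11 rose and 1 fell, with a median of 2.80, and they made up 0.1996% to 0.213% in CD11c+ and 0.0546% to 0.0643% in CD11c- libraries. None of the 12 was at 0 in any library.

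Per 1000 counts of that list Siglec1 had 10.6, 1.08 and 8.45 counts in P5 CD11c+, 3.64, 4.69 and 5.32 in P5 CD11c-, 9.75 and 12.8 in 9-month CD11c+ and 9.73 and 7.71 in 9-month CD11c- libraries. On this measure, chosen after seeing the data, replicate 2 was the lowest of all libraries. The part of these macrophages in the Siglec1 result was not tested.

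**Figure D4:**
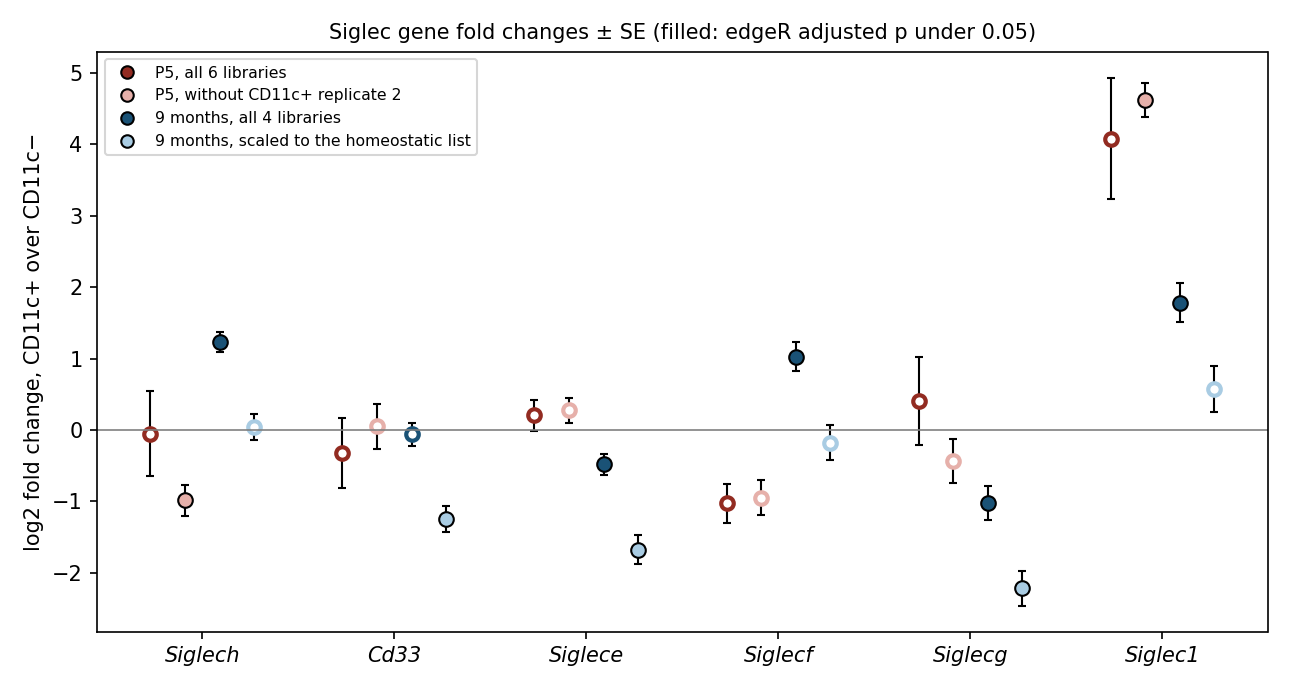
Log2 fold change of CD11c+ over CD11c- (± SE) for the 6 Siglec genes at P5 with and without CD11c+ replicate 2 and at 9 months under TMM scaling and scaled to the homeostatic list, filled where the edgeR adjusted p is under 0.05. Siglec1 is highest at both ages, Siglecf lies below 0 at P5 and above it at 9 months under TMM, and Siglece, Siglecg and Cd33 are the members filled under homeostatic scaling.

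Across the 9 libraries without P5 CD11c+ replicate 2, each centred on its age mean, log2(CPM + 1) of Siglech and Siglecf correlated at r = 0.97. In the replicate left out, Siglech was the highest of the P5 libraries (1272 CPM) and Siglecf the lowest (14.5 CPM). Siglec1 and Siglece stood at 0.81, Siglecf and Cd33 at 0.50, and Siglece and Siglech at -0.61. These values share libraries and the contrast between subsets and are descriptions over n = 9. The genes most like Siglech were Frmd4a (r = 0.995), Dock10 (0.994) and Slc1a3 (0.992), and those most like Siglecf were Numb (0.988), Bzw2 (0.988) and Sema4g (0.986), out of 9659 genes with a mean of at least 8 CPM.

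Siglec1 was most like Adam33 (0.998), Selenbp1 (0.996) and Itsn1 (0.996). Close to Cd33 were G2e3 (0.994) and Tardbp (0.982), and for Siglece Slfn5 (0.978), Pgghg (0.974) and Cd93 (0.974). Siglecg had the loosest companions, Mpc1 (0.956), 9930021J03Rik (0.927) and Eif1b (0.894). With all 10 libraries Slc1a3 was again among the 3 closest to Siglech, and none of the other genes named here was again among the closest 3 of its member.

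The other Siglecs that mice have outside these 6 were measured as well. Cd22, the B cell inhibitory Siglec, had 47.0 and 40.9 CPM in 9-month CD11c+ and 13.8 and 6.74 CPM in 9-month CD11c- libraries and rose by 1.74 ± 0.31 (log2, edgeR adjusted p = 0.006171). Mag, myelin-associated glycoprotein of oligodendrocytes, had 52.3 and 51.0 against 12.1 and 15.9 CPM there and rose by 1.49 ± 0.24 (0.004148). Under homeostatic scaling they were at 0.51 (0.238) and 0.31 (0.3077). Neither passed at P5, where Cd22 without replicate 2 rose by 1.39 (edgeR adjusted p = 0.04833). Oligodendrocyte markers made up 0.0182% to 0.0203% of counts in 9-month CD11c+ and 0.0113% to 0.0169% in CD11c- libraries. Siglec15 was at or near 0 in all libraries and was not tested.

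Of 15 adaptor and signalling genes, 0 of 14 tested passed at P5, and 1 did without CD11c+ replicate 2, the kinase gene Zap70, which rose by 2.62 (edgeR adjusted p = 0.02129). At 9 months 3 rose and 5 fell of 13 tested, against 14.8% and 18.2% of all tested genes. The median log2 fold change was 0.07, against 0.02 over all genes. Inpp5d, the inositol phosphatase SHIP1, rose by 1.24 ± 0.19 (edgeR adjusted p = 0.003127) and Socs3, an inhibitor of cytokine signalling, by 1.44 ± 0.24 (0.004705). Hcst, the adaptor DAP10, fell by 3.26 ± 0.22 (0.000105), and Ptpn11, which encodes SHP-2, by 1.32 ± 0.21 (0.003883). Ptpn6, which encodes SHP-1, stood at 0.10 (0.654). Tyrobp, named here after its values were seen because Siglech depends on its product, had 1381 and 1797 CPM in CD11c+ and 2283 and 3380 CPM in CD11c- libraries at 9 months. It fell by 1.23 ± 0.26 (0.01189), while Siglech rose. The CD11c- libraries, in which Tyrobp, Hcst and Ptpn11 were higher, had 13.8% to 18.8% of their counts in neutrophil markers. Monocyte markers made up 1.16% to 1.39% there. In CD11c+ libraries the shares were 0.141% to 0.227% and 0.0283% to 0.0373%. The part of those cells in the values of these 3 genes was not tested.

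Genes of sialic acid synthesis and transport rose more often than they fell at 9 months. At 9 months 6 of 11 rose and 2 fell, with a median of 0.76, against 14.8% and 18.2% of all tested genes. At P5 1 of 11 passed, with or without CD11c+ replicate 2, against 0.299% and 9.48% of all tested genes. Siae, which removes acetyl groups from sialic acid, rose by 1.77 ± 0.21 (edgeR adjusted p = 0.001161), Npl, the sialic acid lyase, by 1.30 ± 0.17 (0.001862) and Renbp, an epimerase of its precursor sugar, by 1.22 ± 0.15 (0.001264). Scaled to the homeostatic list none of the 6 kept its call, Gne, Slc35a1 and Slc17a5 among them turned to values below 0, and 4 of the 11 fell.

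Cmah, the hydroxylase that makes N-glycolylneuraminic acid from N-acetylneuraminic acid, went opposite ways in the 2 ages. It had 94.3, 46.6 and 94.4 CPM in P5 CD11c+ and 4.85, 7.52 and 3.70 CPM in P5 CD11c- libraries. These did not overlap, as for 11.7% of all tested genes in that direction. Cmah had 7.81 and 6.92 CPM in 9-month CD11c+ and 27.0 and 18.3 CPM in 9-month CD11c- libraries. Again these did not overlap, as for 23.7% of all tested genes in that direction. Cmah rose by 3.68 ± 0.42 at P5 (log2, edgeR adjusted p = 0.03342) and fell by 1.98 ± 0.26 at 9 months (0.001693). The P5 call was lost without any single library other than CD11c+ replicate 2 (0.205 to 0.433), and without that replicate the value was 3.96 (0.000632), with 8 of 15 alternatives passing. The change between ages was -5.49 ± 0.66 (edgeR adjusted p = 0.01303).

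**Figure D5:**
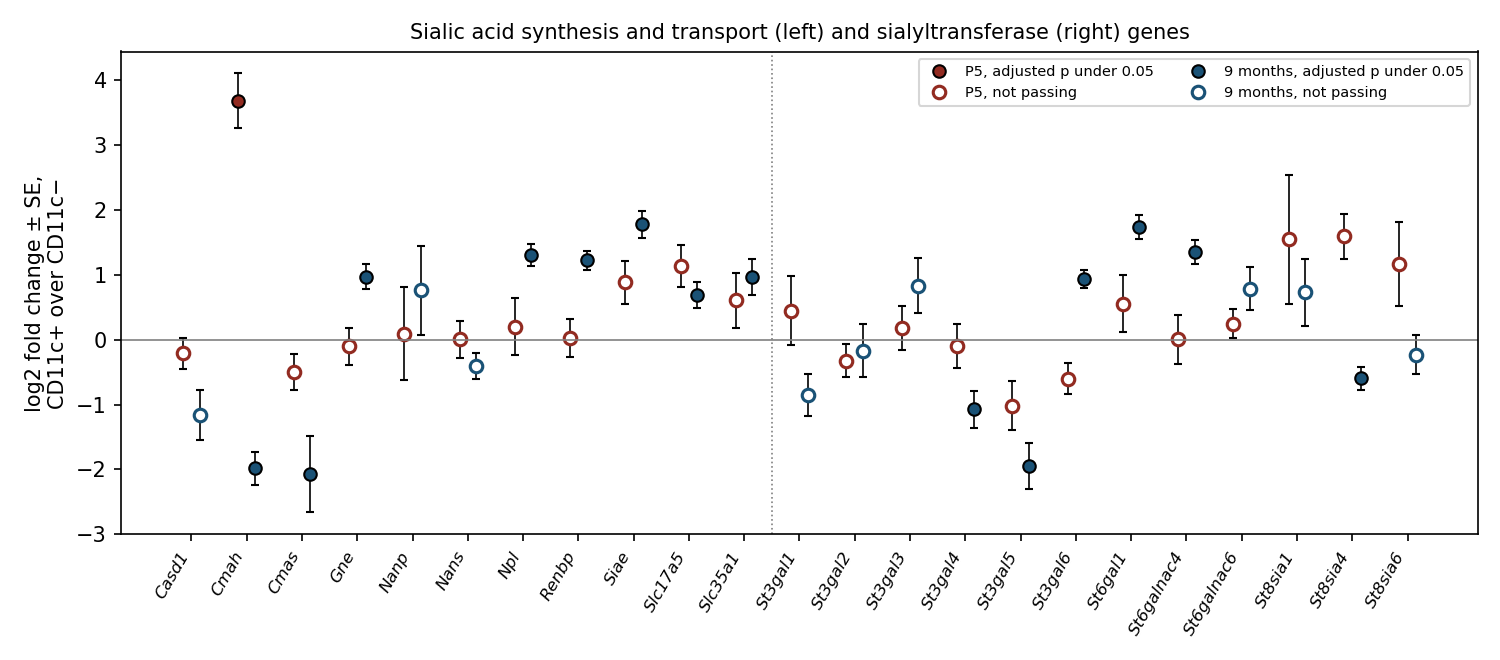
Log2 fold change of CD11c+ over CD11c- (± SE) under TMM scaling for genes of sialic acid synthesis and transport (left) and sialyltransferases (right) at P5 and 9 months, filled where the edgeR adjusted p is under 0.05. Cmah, at 3.68 at P5 and -1.98 at 9 months, is the only gene filled at P5.

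Among 20 sialyltransferases, which attach sialic acid to glycans, 12 were tested at each age. None passed at P5 with all libraries. Without CD11c+ replicate 2, St6gal1 rose by 0.94 (edgeR adjusted p = 0.02129), St8sia4 rose by 1.46 (0.03018) and St3gal5 fell by 0.68 (0.03133). At 9 months 3 of the 12 rose and 3 fell, against 14.8% and 18.2% of all tested genes. St6gal1, which makes the alpha-2,6 linkage that CD22 binds, had 106 and 87.9 CPM in CD11c+ and 24.5 and 20.6 CPM in CD11c- libraries and rose by 1.73 ± 0.19 (edgeR adjusted p = 0.000797). St6galnac4 rose by 1.35 ± 0.18 (0.002054) and St3gal6 by 0.93 ± 0.13 (0.002608). St3gal5, the ganglioside GM3 synthase, fell by 1.95 ± 0.35 (0.006633). Scaled to the homeostatic list 0 of the 12 rose and 6 fell, against 0.75% and 53.9% of all tested genes. St6gal1, St6galnac4 and St3gal6 thus lost their calls there, with St3gal6 at -0.27, and St3gal5 kept its call. Of 4 sialidase genes, which remove sialic acid, 2 were tested and 0 passed at either age.

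Of 7 genes of known protein ligands of Siglecs, 3 fell and 2 rose in CD11c+ cells at 9 months, with a median of -1.05. Over all tested genes 18.2% fell and 14.8% rose. Summed counts of the list were higher in CD11c+ libraries (0.638% to 0.687%) than in CD11c- libraries (0.4353% to 0.4357%). Selplg, named here for its level and also in the homeostatic list, had 6319 and 5782 against 2460 and 2172 CPM. It rose by 1.01 ± 0.14 (edgeR adjusted p = 0.002099). Cd24a, a ligand of Siglecg, had 21.4 and 13.03 CPM in CD11c+ and 629 and 529 CPM in CD11c- libraries and fell by 5.44 ± 0.28 (edgeR adjusted p = 4.6e-05). Cd52 fell by 3.56 ± 0.24 (0.000102) and Spn, which encodes CD43, a counter-receptor of Siglec1, by 2.26 ± 0.23 (0.00056). Lgals3bp, a secreted glycoprotein, rose by 1.83 ± 0.15 (0.000221). The CD11c- libraries, in which Cd24a, Cd52 and Spn were higher, had 13.8% to 18.8% of their counts in neutrophil markers, and the CD11c+ libraries 0.141% to 0.227%. The part of those cells was not tested. At P5, 0 of 5 tested ligand genes passed, and without CD11c+ replicate 2 Lgals3bp, 1 of 6 tested, rose by 1.22 (edgeR adjusted p = 0.0165). Cd24a had 12.1, 17.9 and 15.5 CPM in CD11c+ and 9.50, 27.6 and 25.1 CPM in CD11c- libraries, which overlapped.

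The 18 genes of these lists that are named above by the naming rule and passed at 9 months kept their calls without any 1 library. Under homeostatic scaling 10 lost them, and in the fit of all 10 libraries 15 did, with Cd24a, Cd52 and Siae keeping theirs.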

How the data were processed

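RNA from 10 libraries of sorted brain microglia was analysed, 6 at P5 and 4 at 9 months. The deposited values are the authors' unnormalized whole-number counts for each gene, and, per the submitters' processing notes, used Trimmomatic 0.36, STAR 2.5.2b and Subread 1.5.2. Build, strandedness and treatment of multimapping reads are not given in the sources used here, so reads of similar genes of the family may have been shared or lost. Coordinates of 44772 of the 48970 genes with a GENCODE M21 symbol (91.43%) had the same start and end in that annotation. No column of values was left unused (0 columns).

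Each age was fitted alone with edgeR 4.0.16 in R 4.3.3 (filterByExpr, TMM, quasi-likelihood F-test), and the change between ages was the interaction term over all 10. Benjamini-Hochberg adjustment ran over every gene in a fit, and the threshold was 0.05. The SE is the fold change divided by the square root of its F value. CPM were computed from plain library totals. Replicates were not duplicates, differing by more than sampling noise (chi-square over degrees of freedom 25.29 to 209.87).

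Alternatives were DESeq2 1.42.0, limma 3.58.1 (voom, with and without sample quality weights), other scalings, no filter on low counts, a replicate block, a fit of all 10 libraries and leaving out each library. The fits were tested on simulated counts, with 1 common spread for all genes and libraries of a fit. At P5 that spread, edgeR's biological coefficient of variation, was 0.6145, and it was 0.2427 without CD11c+ replicate 2. In the data that replicate stood apart from the other P5 libraries, so the rates describe the simulated setting only. Of 4-fold changes 5.97% were recovered at P5 (13230 genes), 98.5% there without CD11c+ replicate 2 (13087 genes), 86.6% at 9 months (13609 genes) and 0% for the change between ages (13616 genes), where 4.55% of 16-fold changes were.

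The members and lists were chosen with earlier results of these data known. The 6 members are named throughout, with up to 4 genes of each further list with the smallest p at each age, and for each member the 3 genes with the highest correlation, of which 1 is not reported here. Tests between ages within a subset were left out because the kit differed.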

Additional observations from a re-analysis of the deposited data

Results flagged for a closer look

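The difference between CD11c+ and CD11c- cells was not the same at the 2 ages for 4 of the genes named, by the interaction test of edgeR's quasi-likelihood method. Siglecf had a log2 fold change that was 2.26 ± 0.45 higher at 9 months than at P5 (adjusted p = 0.0388), being lower in 3 of 3 P5 CD11c+ libraries and higher in 2 of 2 at 9 months. With 1 library left out, it held only when that library was P5 CD11c+ replicate 2, and the edgeR adjusted p ran from 0.00329 to 0.4307.

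For Cmah the difference was -5.49 ± 0.66 (edgeR adjusted p = 0.01303). That call was lost without P5 CD11c- replicate 3 (0.05279) or any 9-month library (CD11c+ replicate 1 at 0.2954, replicate 2 at 0.2316, CD11c- replicate 1 at 0.1116, replicate 2 at 0.1284). For Cd24a it was -4.53 ± 0.72 (edgeR adjusted p = 0.01933), lost without P5 CD11c- replicate 2 (0.05626) or 3 (0.05375) or any 9-month library (0.1213 to 0.3041). For Cd52 it was -3.12 ± 0.59 (edgeR adjusted p = 0.0307), lost without any single library (0.05812 to 0.5009) except P5 CD11c+ replicate 2. The kit differed between the ages, and its part in these differences cannot be told apart from that of age.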

How the results depend on the processing

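Whether the replicate numbers pair the libraries could not be decided. With each gene centred on its group mean, same-numbered libraries correlated at 0.48, 0.05 and -0.48 at P5 and each at 0.12 at 9 months. Differently numbered libraries at P5 ran from -0.54 to 0.52. With 2 libraries per group at 9 months the centred values mirror each other, so all correlations there have the same size by construction. With a replicate block, 0 genes passed at P5, 5436 at 9 months and 0 for the change between ages, and 0, 5 and 0 members. In place of 46 genes at P5 (668 higher and 409 lower at an unadjusted p under 0.05), DESeq2 called 554, limma-voom 75, quality weights 3271, homeostatic scaling 96, plain totals 75 and the fit of all 10 libraries 138, and leaving out 1 library gave 0 to 1501. Of the members DESeq2 called 1, quality weights 3, and leaving out 1 library 0 to 2. In place of 5202 genes at 9 months, homeostatic scaling called 8609 (118 higher, 8491 lower) and the fit of all 10 libraries 1158, leaving out 1 library gave 4006 to 6087, and plain totals gave 4005 higher and 2062 lower against 2333 and 2869. Members called there were 3 with homeostatic scaling, 3 with plain totals, 0 in the fit of all 10 libraries and 3 to 4 without 1 library. For the change between ages, 364 genes became 2375 with DESeq2, 3917 with quality weights, 623 with DESeq2 size factors, 5905 with homeostatic scaling, 693 without the filter and 0 to 3496 without 1 library, and the 1 member became 2, 3, 1, 3, 1 and 0 to 3. Scaling to the homeostatic list moved the median of all genes to 0.58 at P5 and -1.99 for the change between ages.

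Signs turned as follows. At P5, Siglech was at 0.0054 (DESeq2), 0.0049 (DESeq2 size factors), 0.71 (homeostatic scaling), 0.14 (plain totals) and above 0 without CD11c+ replicate 1 or 3 or CD11c- replicate 1, in a range of -0.989 to 0.12 over leaving out each library. Siglecg was at -0.31 (limma-voom), -0.38 (quality weights) and between -0.44 (without CD11c+ replicate 2) and 0.6466 over leaving out each library. Cd33 was at 0.23 (quality weights), 0.18 (homeostatic scaling), and above 0 without CD11c+ replicate 2 or CD11c- replicate 1 (-0.7044 to 0.058 over leaving out each library). At 9 months Siglecf was at -0.18 and St3gal6 at -0.27 (homeostatic scaling), and Cd33 at 0.32 (plain totals), 0.0508 (fit of all 10) and -0.2261 to 0.18 over leaving out each library, the highest without CD11c- replicate 2. For the change between ages Siglech was at -0.66 (homeostatic scaling), and Cd33 at -0.17 (quality weights), -1.43 (homeostatic scaling) and -0.0023 without P5 CD11c+ replicate 2 (up to 0.8223 without another library). The causes were not tested. Plain totals were added after seeing the data. Low depth limits P5 CD11c+ replicate 2, where Siglec1 rests on 39 and Siglecf on 38 counts.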
